A study of Mus musculus with 6 samples.

Results

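The genes described here are 9 genes linked to the fetal-like or regenerative state of the intestinal epithelium: Ly6a, Anxa1, Anxa3, Clu, Il33, Msln, Spp1, Il1rn and F3. They were chosen by name, and all 9 were found among the 20756 gene identifiers measured. RNA came from mouse tumor organoids (MTOs), gel-embedded epithelial cultures derived from tumors of the intestine, of the C57BL/6 strain. The tested MTOs carried sgPrkci, a CRISPR guide against Prkci, the gene of the atypical protein kinase PKCλ/ι, and were set against MTOs with sgPrkcz, a guide against Prkcz, the gene of the atypical protein kinase PKCζ, with 3 libraries per group. All 6 cultures were untreated and grew in the same medium with recombinant human EGF. MTOs with a control guide were not analysed here, so each direction is that of sgPrkci relative to sgPrkcz. The series calls the libraries of a group biological replicates, but the sources used here do not say whether each group was a pool or a clone or what separated its libraries. P-values therefore rest only on the spread between these libraries. In the main test that spread was moderated toward an intensity trend, the usual spread of all fitted genes at a given level. Group names are those of the GEO labels. A sheet of the study's source material heads the same 6 libraries with the names exchanged, and under those names every direction would reverse. Prkci measured 46.9 to 56.5 CPM in sgPrkci, against 34.5 to 72.3 CPM in sgPrkcz, and Prkcz 2.26 to 4.62 CPM in sgPrkci, against 2.93 to 5.02 CPM in sgPrkcz, but small deletions made by a guide can leave 3′ tags in place, so these levels are no check on the names.

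The fetal gut epithelium and the adult epithelium after injury share a transcriptional state that differs from the crypt stem cells of the resting adult gut. Ly6a, which encodes the surface protein Sca-1, and Clu, which marks revival stem cells after injury, are its usual markers in the mouse. The YAP and TEAD regulators, together with inflammatory and matrix signals, are known to drive it in damaged intestine. The 9 genes encode proteins of different kinds, namely membrane proteins (Ly6a, Msln, F3), calcium-dependent lipid binding proteins (Anxa1, Anxa3), secreted glycoproteins (Clu, Spp1) and members of the interleukin 1 family (Il33, Il1rn).

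Promoter windows were read from RefSeq, on GRCm38.p6, to show which of the genes hold letters of the TEAD or AP-1 motif near their start. Each window runs from 250 bases before to 50 bases after an annotated start. Windows were matched for 5 of the 9 genes, with 9 windows in all, and Ly6a, Anxa3, Clu and Msln were not matched. The TEAD letters searched were CATTCC and the AP-1 letters TGANTCA, each on both strands, and the NF-kB consensus, whose letters include degenerate positions, is given by its name alone. Of the windows of called genes with a match, 5 follow, 5′ to 3′, with the matched letters in capitals.
Anxa1 (chr19:20390622-20390921, minus strand): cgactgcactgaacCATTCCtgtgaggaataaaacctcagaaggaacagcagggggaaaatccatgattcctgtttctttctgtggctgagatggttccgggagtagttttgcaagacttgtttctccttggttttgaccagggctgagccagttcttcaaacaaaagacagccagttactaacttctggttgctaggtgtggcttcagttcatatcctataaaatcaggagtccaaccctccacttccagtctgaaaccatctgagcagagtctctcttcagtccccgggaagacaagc
Il33 (first start, chr19:29924863-29925162, plus strand): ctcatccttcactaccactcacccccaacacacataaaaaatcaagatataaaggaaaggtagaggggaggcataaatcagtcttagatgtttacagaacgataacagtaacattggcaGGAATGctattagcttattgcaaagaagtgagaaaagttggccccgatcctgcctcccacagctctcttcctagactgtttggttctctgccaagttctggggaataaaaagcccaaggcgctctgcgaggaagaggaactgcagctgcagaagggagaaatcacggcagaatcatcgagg
Il33 (second start, chr19:29945540-29945839, plus strand): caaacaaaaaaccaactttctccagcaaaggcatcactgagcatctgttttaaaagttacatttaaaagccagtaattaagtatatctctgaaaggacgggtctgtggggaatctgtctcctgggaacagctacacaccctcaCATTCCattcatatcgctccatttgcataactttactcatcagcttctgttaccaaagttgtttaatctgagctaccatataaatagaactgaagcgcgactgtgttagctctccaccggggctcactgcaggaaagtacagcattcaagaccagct
Il1rn (first start, chr2:24336610-24336909, plus strand): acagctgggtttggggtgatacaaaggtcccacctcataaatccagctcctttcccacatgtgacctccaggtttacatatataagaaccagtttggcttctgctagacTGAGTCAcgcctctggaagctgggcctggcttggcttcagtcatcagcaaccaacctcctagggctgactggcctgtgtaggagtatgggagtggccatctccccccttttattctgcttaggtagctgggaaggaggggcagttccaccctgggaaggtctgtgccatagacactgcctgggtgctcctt
F3 (chr3:121723287-121723586, plus strand): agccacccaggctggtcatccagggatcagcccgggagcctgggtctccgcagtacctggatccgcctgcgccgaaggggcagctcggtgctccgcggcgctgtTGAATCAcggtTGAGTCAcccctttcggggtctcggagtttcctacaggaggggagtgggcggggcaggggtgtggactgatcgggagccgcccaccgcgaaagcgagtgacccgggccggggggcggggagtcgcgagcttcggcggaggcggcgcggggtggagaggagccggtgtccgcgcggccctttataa
Anxa1 and both starts of Il33 held 1 TEAD match each, at -236, -131 and -107 bases from the start. F3 held 2 AP-1 matches, at -146 and -135, and the first start of Il1rn held 1 AP-1 match at -141. Another start of Il1rn held a TEAD match at -24, and both windows of Spp1 and the second of Il1rn held no match. No window held an NF-kB match. Over 32544 promoter windows of this length, 14.6% held the TEAD letters, 7.79% the AP-1 letters and 4.53% the NF-kB motif. A match is a run of letters and was not tested as a binding site.

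The 9 genes did not move together. In sgPrkci MTOs, Clu, F3 and Anxa1 were higher and Il33, Msln, Il1rn and Ly6a were lower than in sgPrkcz MTOs, while Anxa3 and Spp1 did not pass the test. Differences ran from a log2 fold change of -1.42 for Il33 to 1.72 for F3, and the median over the 9 genes was 0.05, beside -0.11 over all 9558 genes fitted. All 9 genes passed the low-value filter, and each did so in both groups. The share of all fitted genes called was 40.9%, with 14.4% higher and 26.5% lower in sgPrkci, and the 9 genes, which were picked by name with earlier results known, had 3 higher and 4 lower. The ranges of the groups did not overlap for 6 of the 9 genes, beside 50% of all fitted genes. The split of all calls depended on the scale, with 35.2% of the called genes higher on the deposited scale and 52.3% after rescaling by trimmed mean of M-values (TMM) factors, which moved the median of all genes to 0.01. With that rescaling 4 of the 9 genes were higher and 4 lower, beside 21.2% higher and 19.3% lower over all fitted genes. Genes like ribosomal RNA (rRNA-like) took 21.2 to 24.0% of the CPM in sgPrkci libraries, against 17.6 to 19.4% in sgPrkcz libraries. Without them 45.2% of the called genes were higher and the median of all genes was -0.04.

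The 3 membrane proteins went different ways. Ly6a (ENSMUSG00000075602, chromosome 15, 74994877 to 74998031, minus strand, GRCm38), the gene of Sca-1, measured 1405, 1204 and 1226 CPM in the sgPrkci libraries, against 1718, 1991 and 1693 CPM in the sgPrkcz libraries. Every sgPrkci library lay below every sgPrkcz library, and Ly6a was lower in sgPrkci by 0.49 ± 0.08 (SE) on the log2 scale (mean 1278 ± 110 CPM in sgPrkci, against 1801 ± 165 CPM in sgPrkcz, SD, n = 3 each; limma, adjusted p = 2.01e-05). In bulk samples, fewer cells that express a gene and less RNA per cell cannot be told apart.

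Msln (ENSMUSG00000063011, chromosome 17, 25748613 to 25754378, minus strand) encodes mesothelin, a lipid-anchored surface glycoprotein that is also a marker of mesothelium. It measured 70.9, 62.1 and 91.3 CPM in sgPrkci, against 145.0, 186.4 and 136.9 CPM in sgPrkcz. The groups did not overlap, and the sgPrkci mean was 74.8 ± 14.96 CPM, against 156.1 ± 26.5 CPM in sgPrkcz (log2 fold change -1.06 ± 0.13, adjusted p = 8.99e-07). A list of other mesothelial markers moved the opposite way, with a summed level of 41.6 to 44.1 CPM in sgPrkci, against 2.51 to 5.19 CPM in sgPrkcz. That list had 2 of 5 genes in the table, and its sum was carried by Upk1b, a uroplakin, while Lrrn4 stayed at or below 2.34 CPM.

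F3 (ENSMUSG00000028128, chromosome 3, 121723537 to 121735048, plus strand), the gene of tissue factor, starts the extrinsic clotting cascade on the cell surface. It measured 195.7, 308.7 and 121.8 CPM in sgPrkci, from 519, 661 and 343 reads, and 82.3, 30.1 and 79.6 CPM in sgPrkcz, from 222, 48 and 136 reads. The groups did not overlap, although the libraries spread widely within each. F3 averaged 208.8 ± 94.1 CPM in sgPrkci, against 64.0 ± 29.4 CPM in sgPrkcz, a ratio of means of 3.26 (log2 fold change 1.72 ± 0.27, adjusted p = 2.58e-05). The SE of F3 was larger in other fits. It was 0.45 in limma without the intensity trend (adjusted p = 0.0231) and 0.56 in DESeq2 (adjusted p = 0.00696). With sgPrkci replicate 11 and sgPrkcz replicate 14 both left out, a setting chosen after seeing the data, the log2 fold change of F3 was 0.92 (adjusted p = 3.31e-04).

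**Figure D1:**
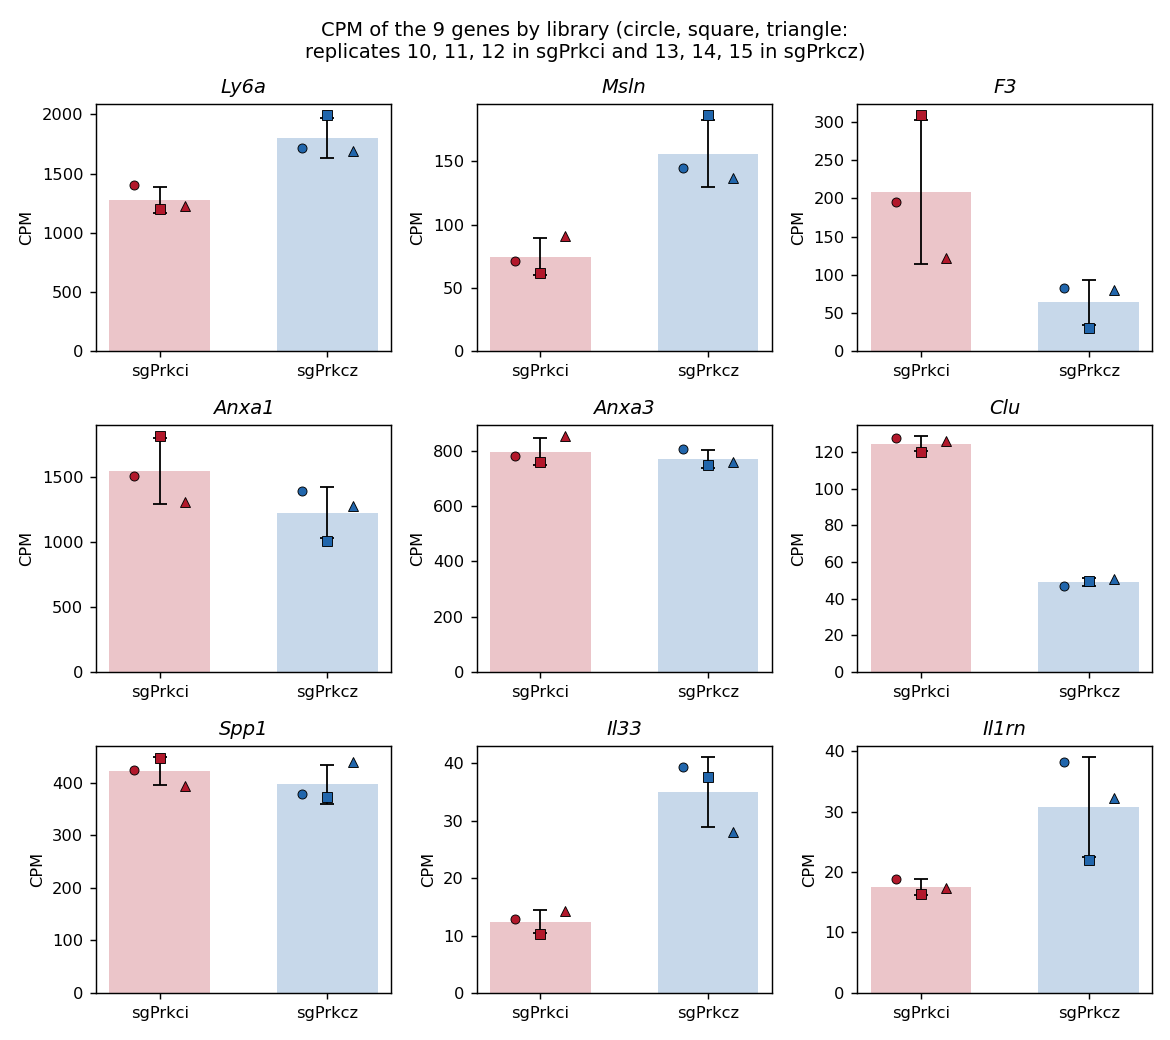
CPM (y axis, linear from 0) of each of the 9 genes, a panel per gene, in the 3 sgPrkci libraries (left) and the 3 sgPrkcz libraries (right), with bars at the mean and error bars of 1 SD. Clu and F3 sit higher and Ly6a, Msln, Il33 and Il1rn lower in every sgPrkci library, whereas the libraries of Anxa1, Anxa3 and Spp1 overlap.

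The annexins bind membrane phospholipids in the presence of calcium. Anxa1 (ENSMUSG00000024659, chromosome 19, 20373428 to 20390944, minus strand), known as a glucocorticoid-induced mediator that restrains inflammation, measured 1509, 1813 and 1310 CPM in sgPrkci, against 1390, 1010 and 1276 CPM in sgPrkcz. The ranges overlapped, since sgPrkcz replicate 13 lay above sgPrkci replicate 12. Anxa1 passed the test as higher in sgPrkci, with means of 1544 ± 253 CPM in sgPrkci, against 1225 ± 195 CPM in sgPrkcz (log2 fold change 0.33 ± 0.10, adjusted p = 0.0126), but not without sgPrkci replicate 11 (0.21, adjusted p = 0.106) or without sgPrkcz replicate 14 (0.20, adjusted p = 0.123). With both libraries left out the log2 fold change was 0.08 (adjusted p = 0.526). Anxa3 (ENSMUSG00000029484, chromosome 5, 96793339 to 96845966, plus strand) was nearly level over the libraries, with 780.4, 758.0 and 852.3 CPM in sgPrkci, against 807.4, 748.0 and 758.3 CPM in sgPrkcz. The log2 fold change of Anxa3 was 0.05, with a 95% interval of -0.10 to 0.19 (adjusted p = 0.629).

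Of the secreted glycoproteins, Clu was the gene with the least spread. Clu (ENSMUSG00000022037, chromosome 14, 65968483 to 65981547, plus strand), which encodes clusterin, an extracellular chaperone, measured 127.5, 120.0 and 126.1 CPM in sgPrkci, against 46.7, 49.6 and 50.9 CPM in sgPrkcz. The gap between the groups was far wider than the spread within either, at 124.5 ± 3.96 CPM in sgPrkci, against 49.1 ± 2.13 CPM in sgPrkcz (ratio of means 2.54, log2 fold change 1.33 ± 0.10, adjusted p = 1.16e-09). Over all alternatives run, its log2 fold change lay between 1.19 and 1.47. Spp1 (ENSMUSG00000029304, chromosome 5, 104435118 to 104441050, plus strand), the gene of osteopontin, a matrix protein that binds integrins and CD44, measured 424.7, 447.0 and 393.9 CPM in sgPrkci, against 378.6, 372.8 and 440.0 CPM in sgPrkcz. The groups overlapped, with sgPrkcz replicate 15 above 2 of the sgPrkci libraries. Its log2 fold change was 0.09 (95% interval -0.08 to 0.25, adjusted p = 0.398), and it passed with TMM rescaling (0.21, adjusted p = 0.0363) and with edgeR on recovered reads (0.20, adjusted p = 0.0458).

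Both members of the interleukin 1 family were lower in sgPrkci. Il33 (ENSMUSG00000024810, chromosome 19, 29925114 to 29960718, plus strand), a nuclear cytokine released by damaged epithelial cells, measured 12.8, 10.3 and 14.2 CPM in sgPrkci, from 34, 22 and 40 reads, and 39.3, 37.6 and 28.1 CPM in sgPrkcz, from 106, 60 and 48 reads. All sgPrkcz libraries lay above all sgPrkci libraries, and Il33 averaged 12.4 ± 1.99 CPM in sgPrkci, against 35.02 ± 6.06 CPM in sgPrkcz (log2 fold change -1.42 ± 0.19, adjusted p = 3.15e-06). Il1rn (ENSMUSG00000026981, chromosome 2, 24336853 to 24351494, plus strand), the gene of the interleukin 1 receptor antagonist, measured 18.9, 16.4 and 17.4 CPM in sgPrkci, against 38.2, 21.96 and 32.2 CPM in sgPrkcz. The sgPrkci libraries were tightly grouped and lay below all sgPrkcz libraries, of which replicate 14 came nearest with 35 reads. Il1rn was lower in sgPrkci, with 17.5 ± 1.26 CPM in sgPrkci, against 30.8 ± 8.21 CPM in sgPrkcz (log2 fold change -0.75 ± 0.19, adjusted p = 0.00343).

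**Figure D2:**
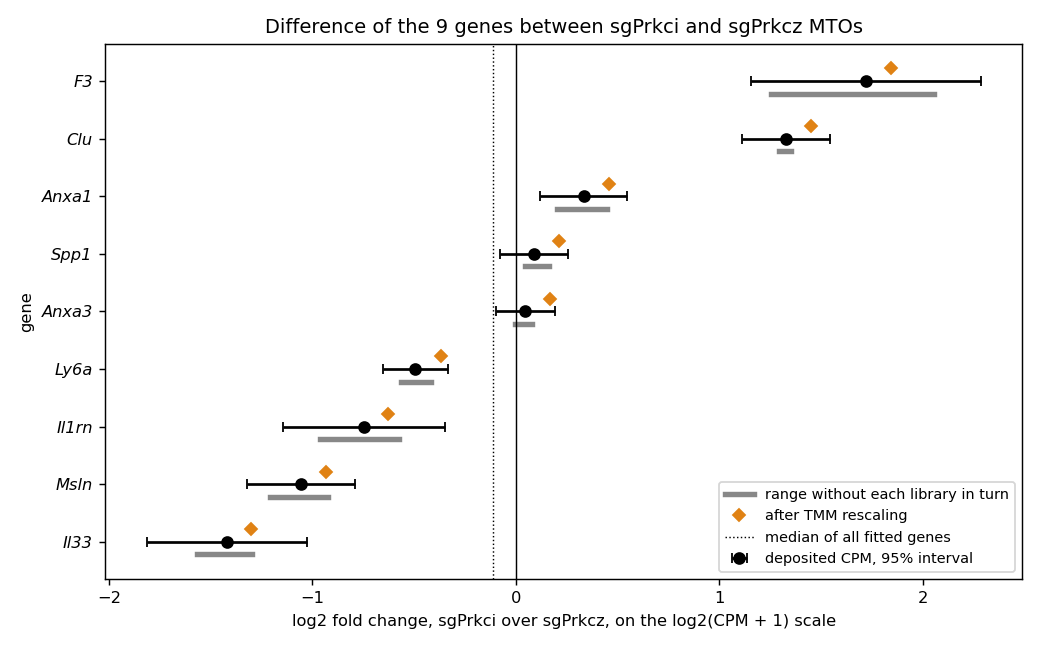
Log2 fold change of each gene, sgPrkci over sgPrkcz, on the log2(CPM + 1) scale (x axis), with the 95% interval (black), the range when each library is left out in turn (grey bar) and the value after TMM rescaling (orange diamond). F3 and Clu stand at the right with 1.72 and 1.33 and Il33 and Msln at the left with -1.42 and -1.06, and TMM rescaling shifts every gene to the right.

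Within a group the genes also differed from library to library, most of all F3. The within-group SD of F3 was 0.74 on the log2(CPM + 1) scale, beside a median of 0.18 over all fitted genes, and none of the other genes among the 1333 with at least its mean level had a larger one. In sgPrkci, F3 stood 0.66 above its group mean in replicate 11 and 0.67 below it in replicate 12, and in sgPrkcz it stood 0.93 below in replicate 14. Ccn2, a matrix-associated protein and a standard YAP target that was chosen for this comparison after its values were seen, ran alike, with 13.6, 35.5 and 10.3 CPM in sgPrkci, against 8.53, 3.77 and 14.6 CPM in sgPrkcz. F3, Ccn2, Anxa1 and Spp1 were all highest of their group in sgPrkci replicate 11 and lowest of their group in sgPrkcz replicate 14. Msln and Ly6a ran the other way, lowest of their group in sgPrkci replicate 11 and highest in sgPrkcz replicate 14. Those 2 libraries were also the shallowest of their groups, with 2141125 and 1593480 reads, and the part of depth in these deviations was not tested. Spp1 and Ly6a had within-group SDs of 0.11 and 0.13, below the median of 0.18 over all fitted genes. How many of all fitted genes share either order of these libraries was not counted. Clu, with a within-group SD of 0.05, spread little.

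**Figure D3:**
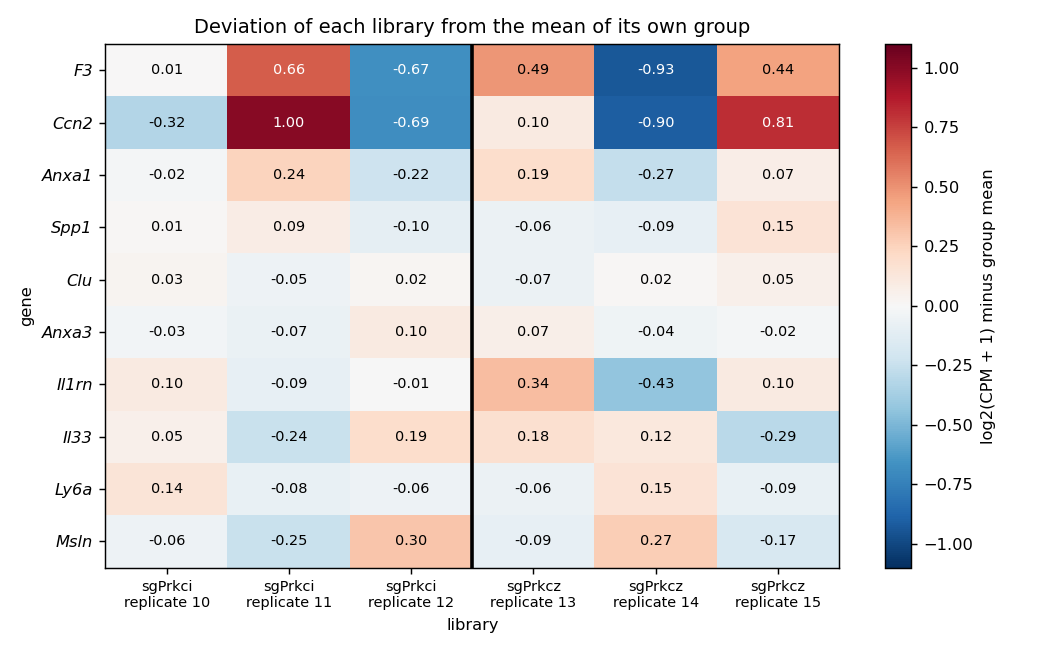
Deviation of each library from the mean of its own group on the log2(CPM + 1) scale (colour and printed value) for the 9 genes and Ccn2 (rows), with the sgPrkci libraries on the left and the sgPrkcz libraries on the right. F3 reaches 0.66 in sgPrkci replicate 11 and -0.93 in sgPrkcz replicate 14, and Msln has the opposite sign in both libraries, at -0.25 and 0.27.

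Other genes known from the fetal-like or injured epithelium were counted from a list of 23, of which 18 passed the filter. In sgPrkci 10 were higher and 4 lower and 4 did not pass, beside 14.4% higher and 26.5% lower over all fitted genes. The median log2 fold change was 0.34, beside -0.11 over all fitted genes. Among the genes called higher, Cd55 passed the filter through the sgPrkci libraries alone, so it could be called only as higher. Anxa2, an annexin that pairs with an S100 protein at the membrane, was higher, with 6217 ± 428 CPM in sgPrkci, against 3904 ± 83.4 CPM in sgPrkcz (log2 fold change 0.67). The S100 calcium binding protein gene S100a11 was also higher, with 1444 ± 144 CPM in sgPrkci, against 857 ± 89.2 CPM in sgPrkcz, and so was Cldn4, a tight junction claudin, with 93.7 ± 11.7 CPM in sgPrkci, against 44.8 ± 6.03 CPM in sgPrkcz. Krt7, a keratin of simple ductal epithelia, was lower, with 1024 ± 45.0 CPM in sgPrkci, against 1513 ± 88.6 CPM in sgPrkcz. With TMM rescaling 11 of these genes were higher and 3 lower, beside 21.2% higher and 19.3% lower over all fitted genes on that scale. S100a6, lower on the deposited scale by 0.27, did not pass with TMM rescaling (adjusted p = 0.114).

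Families of the 9 genes were counted without the 9 genes, beside 14.4% higher and 26.5% lower over all fitted genes. Of 7 other annexins fitted, 4 were higher and 1 lower in sgPrkci. The higher annexins include Anxa2 and Anxa5, which were also counted in the list of fetal-like genes above. The largest annexin difference was that of Anxa4, which is found mainly in epithelial cells, with 1348, 1305 and 1248 CPM in sgPrkci, against 606.4, 507.1 and 497.9 CPM in sgPrkcz (log2 fold change 1.28 ± 0.08, adjusted p = 1.27e-11). Anxa7 was higher as well, with 155.1 ± 3.73 CPM in sgPrkci, against 84.6 ± 4.15 CPM in sgPrkcz, whereas Anxa6 was lower, with 266.9 ± 26.6 CPM in sgPrkci, against 431.2 ± 20.4 CPM in sgPrkcz. Of 8 other genes of the Ly6 family of lipid-anchored surface proteins, 2 were higher and 3 lower. With TMM rescaling Lypd2 was the 1 called lower, on a scale where 19.3% of all fitted genes were lower. Ly6c2, which lies in the same gene cluster as Ly6a, measured 26.4, 32.2 and 31.6 CPM in sgPrkci, against 2.97, 6.28 and 2.34 CPM in sgPrkcz (log2 fold change 2.76 ± 0.26, adjusted p = 2.59e-08). Its near copy Ly6c1 had 454.3 ± 50.3 CPM in sgPrkci, against 469.4 ± 38.4 CPM in sgPrkcz and did not pass, and 23.2% of the 75-base windows at the 3′ end of Ly6c2 also occur in Ly6c1, so the division of reads between them is uncertain. For Ly6a 0.13% of such windows were shared. Ly6d was higher, with 857.4 ± 48.2 CPM in sgPrkci, against 516.3 ± 39.4 CPM in sgPrkcz, and Lypd2 was lower, with 76.8 ± 8.20 CPM in sgPrkci, against 106.6 ± 6.40 CPM in sgPrkcz.

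In the interleukin 1 family Il1a was higher in sgPrkci, whereas the cytokine gene Il33 and the antagonist gene Il1rn were lower. Il1a, the gene of interleukin 1 alpha, measured 56.2, 44.4 and 45.8 CPM in sgPrkci, against 1.48, 0.628 and 0.585 CPM in sgPrkcz (log2 fold change 4.74 ± 0.25, adjusted p = 1.94e-12). It passed the filter through the sgPrkci libraries alone, so it could be called only as higher, and without any 1 of them it was not fitted. Il1r1, the signalling receptor that Il1rn blocks, was higher, with 51.9 ± 3.15 CPM in sgPrkci, against 38.4 ± 2.74 CPM in sgPrkcz (log2 fold change 0.43, adjusted p = 0.0113). Its partner chain gene Il1rap was lower at a low level, with 3.10 ± 1.16 CPM in sgPrkci, against 6.63 ± 0.817 CPM in sgPrkcz (adjusted p = 0.0175), and did not pass with DESeq2 (adjusted p = 0.165). Il1rap passed the filter through the sgPrkcz libraries alone, so it could be called only as lower, and without any 1 of them it was not fitted. It kept its call in 2 of the 3 fits that leave out an sgPrkci library. Il1rl1, the gene of the receptor of Il33, was listed at 0 in all 6 libraries, as was Tfpi, the gene of the inhibitor of the tissue factor pathway.

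Receptors and binding partners of the 9 proteins gave 3 higher, 2 lower and 5 that did not pass among 10 fitted of 20 listed. This stands beside 14.4% higher and 26.5% lower over all fitted genes. Il1r1, among the higher, and Il1rap, among the lower, are those already described with the interleukin 1 family. Cd44, a receptor of osteopontin, was higher, with 1649 ± 159 CPM in sgPrkci, against 948.3 ± 58.6 CPM in sgPrkcz (log2 fold change 0.79). Itgb1, an integrin chain that takes part in osteopontin binding, was lower, with 381.4 ± 21.9 CPM in sgPrkci, against 499.1 ± 18.3 CPM in sgPrkcz.

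**Figure D4:**
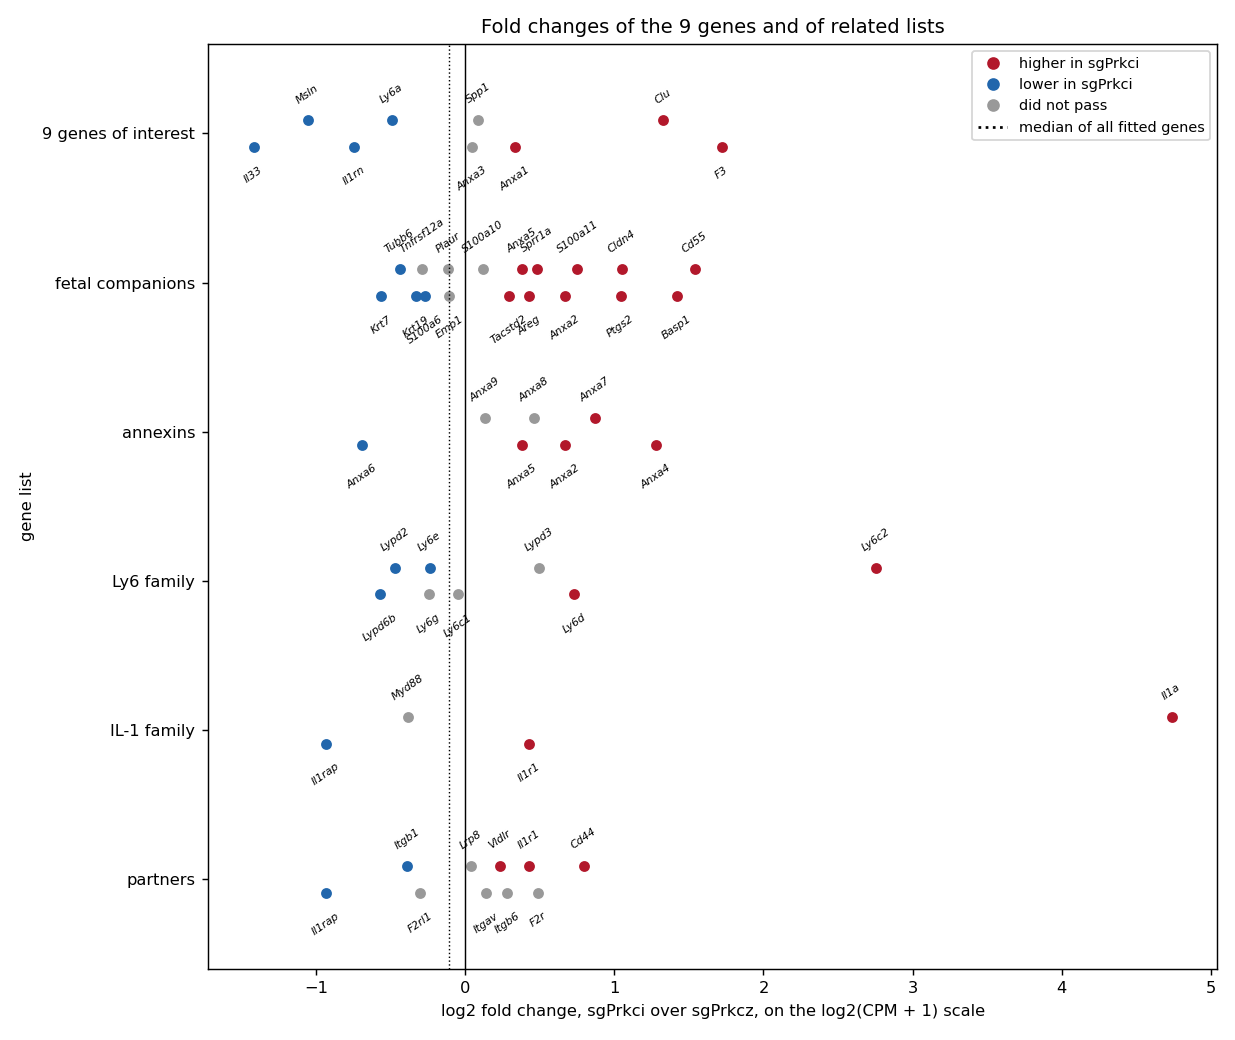
Log2 fold change, sgPrkci over sgPrkcz, on the log2(CPM + 1) scale (x axis), of the 9 genes (top row) and of fitted genes of 5 related lists, a point per gene, red where higher and blue where lower in sgPrkci and grey where the test was not passed. The 9 genes spread on both sides of 0, and Il1a (4.74) and Ly6c2 (2.76) lie farthest to the right among the related genes.

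Of 11 fitted regulators and targets of YAP and TEAD, 2 were higher and 3 lower in sgPrkci, and 6 did not pass. The shares among all fitted genes were 14.4% higher and 26.5% lower. Ccn2, among the higher, did not pass with DESeq2 (adjusted p = 0.215). Amotl2, a YAP target that also restrains YAP, was lower, with 12.2 ± 2.34 CPM in sgPrkci, against 36.3 ± 4.34 CPM in sgPrkcz (log2 fold change -1.50 ± 0.19, adjusted p = 1.14e-06). Of the TEAD factors, Tead1 was lower, with 95.2 ± 0.904 CPM in sgPrkci, against 132.1 ± 4.24 CPM in sgPrkcz, and Tead3 was higher at a low level, with 11.6 ± 2.39 CPM in sgPrkci, against 6.24 ± 1.16 CPM in sgPrkcz. Ajuba, a scaffold of the pathway, was lower, with 31.4 ± 1.71 CPM in sgPrkci, against 44.6 ± 5.18 CPM in sgPrkcz (adjusted p = 0.00846; DESeq2, adjusted p = 0.127).

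Crypt stem cell genes, which the fetal-like state is usually set against, gave 3 higher, 2 lower and 3 that did not pass among 8 fitted. The shares over all fitted genes were 14.4% higher and 26.5% lower. With TMM rescaling 3 crypt stem cell genes were higher and 0 lower, beside 21.2% higher and 19.3% lower over all fitted genes on that scale. Lgr5, the Wnt-driven receptor that marks crypt base stem cells, measured 37.0, 37.4 and 38.4 CPM in sgPrkci, against 17.4, 10.7 and 14.04 CPM in sgPrkcz (log2 fold change 1.38 ± 0.18, adjusted p = 2.82e-06). Ephb2, a receptor of the crypt base, was higher, with 37.8 ± 0.918 CPM in sgPrkci, against 18.004 ± 2.52 CPM in sgPrkcz, and so was the ion transporter gene Slc12a2, with 298.3 ± 10.3 CPM in sgPrkci, against 191.3 ± 7.15 CPM in sgPrkcz. So Clu and Lgr5 were both higher in sgPrkci, and Ly6a was lower. Sox9, a progenitor transcription factor, was lower by 0.27 on the log2 scale, and neither Sox9 nor Tnfrsf19, the other gene lower on the deposited scale, passed with TMM rescaling (adjusted p = 0.129 and 0.186).

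Interferon is a known inducer of Ly6a, and of 4 interferon genes fitted out of 10 listed, 1 was higher and 1 lower. Among all fitted genes 14.4% were higher and 26.5% lower. Ifi35 was lower at a low level, with 4.77 ± 2.79 CPM in sgPrkci, against 9.59 ± 1.58 CPM in sgPrkcz.

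The libraries carried the markers of epithelium, with a summed level of 3602 to 3991 CPM over 8 genes in sgPrkci and 4331 to 4597 CPM in sgPrkcz (exact permutation p = 0.1, the smallest that 3 against 3 libraries can give), and with Cdx1 at 0. The mean sums were 3828 CPM in sgPrkci, against 4435 CPM in sgPrkcz, and 3994 against 4248 CPM with TMM rescaling. Of the 7 fitted, 2 were higher in sgPrkci, the adhesion gene Epcam (log2 fold change 0.49) and the brush border gene Vil1 (0.99). Another 3 were lower, the cadherin gene Cdh1 (-0.51) and the keratin genes Krt18 (-0.41) and Krt19 (-0.33), while Krt8 and Cdx2 did not pass. The shares over all fitted genes were again 14.4% higher and 26.5% lower. Spp1, Il1rn and Anxa1 are also made by leukocytes. The summed immune markers, 3 of 8 in the table, were 7.94 to 12.4 CPM in sgPrkci, against 4.10 to 7.42 CPM in sgPrkcz, with Ptprc at or below 1.51 CPM. That sum was carried by Cd68, a macrophage gene, with 10.9, 7.94 and 11.4 CPM in sgPrkci, against 6.67, 5.65 and 4.10 CPM in sgPrkcz (log2 fold change 0.78, adjusted p = 0.0214), and its part in the values of Spp1, Il1rn and Anxa1 was not tested. Fibroblast markers summed to 0.710 to 2.34 CPM in sgPrkci, against 1.26 to 1.85 CPM in sgPrkcz, endothelial markers to at most 0.467 CPM in sgPrkci, against 1.85 CPM in sgPrkcz, and smooth muscle markers to at most 0.934 CPM in sgPrkci, against 0 in sgPrkcz. Neutrophil markers summed to 35.5 to 40.2 CPM in sgPrkci, against 40.1 to 50.8 CPM in sgPrkcz, nearly all of it Ly6g, a gene of the same family and chromosome as Ly6a.

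For the 3 genes with the largest differences, the genes with the most similar profile over the 6 libraries were found by the root mean square difference of mean-centred log2(CPM + 1) values. Nearest to Clu were C9orf72 (0.05), Cpe (0.06), a prohormone processing enzyme, and Ier3 (0.07), an immediate early gene. Nearest to Il33 were Rrp8 (0.07), of ribosomal RNA processing, Pstpip1 (0.09), a cytoskeletal adaptor, and Trib3 (0.11), a stress-induced pseudokinase. F3 had no neighbour as near, with Itga7 at 0.36, Cog3 at 0.37 and Tnfrsf1b at 0.38. Itga7 passed the filter through the sgPrkci libraries alone. Cog3, a Golgi protein gene, measured 18.9, 32.7 and 14.6 CPM in sgPrkci, against 14.8, 5.02 and 12.3 CPM in sgPrkcz. Tnfrsf1b, a receptor of tumor necrosis factor, measured 37.3, 54.6 and 38.4 CPM in sgPrkci, against 23.4, 10.7 and 19.9 CPM in sgPrkcz. As for F3, both were highest in sgPrkci replicate 11 and lowest in sgPrkcz replicate 14. Both were chosen for their likeness to F3 over these same libraries, so this pattern is no separate result.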

How the data were processed

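The 9 genes and all related lists were chosen with earlier results of these data known. RNA was made into QuantSeq 3′ FWD libraries, which read the 3′ ends of polyadenylated transcripts, and sequenced single-end. The build is GRCm38 per the labels. The study's software list holds the Lexogen QuantSeq pipeline of the BlueBee cloud but ties it to no particular libraries, and the aligner, counter, gene filter and any collapsing of molecular identifiers are not stated. The authors deposited CPM, with each library scaled to a sum of 1000000, for 20756 identifiers, of which 20675 matched a symbol. Gene coordinates come from GENCODE M21.

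In every library 100% of values were whole multiples of the smallest within 0.01, so reads were recovered, 2141125 to 2815760 per sgPrkci library and 1593480 to 2696430 per sgPrkcz library. A read was worth 0.355 to 0.628 CPM. Across genes, Pearson's r on the log2 scale was 0.983 to 0.990 within groups and 0.971 to 0.976 between them.

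The test was limma 3.58.1 in R 4.3.3 with an intensity trend on log2(CPM + 1), 2-sided, over 9558 genes that reached 5 CPM in 3 or more libraries, adjusted by Benjamini-Hochberg over these genes at a threshold of 0.05. On this scale the changes of genes with few reads are understated. CPM values carry the SD of 3 libraries, and log2 fold changes their SE. Marker sums were compared by 2-sided exact permutation tests. Genes named were all 9, Prkci and Prkcz, and up to 4 called genes with the smallest adjusted p in each related list. The 3 nearest profiles of each of the 3 called genes with the largest differences were also named. Others named (Anxa5, Ccn2, Cd55, Ly6c1, Ly6g, S100a6, Tnfrsf19, Il1rl1, Tfpi and the markers) were chosen after their values were seen or are listed markers. A result that this rule takes is not reported here.

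Alternatives were TMM rescaling, quantile normalization, leaving out rRNA-like genes, no trend, other filters and pseudocounts, leaving out each library, edgeR 4.0.16 (3941 genes called) and DESeq2 1.42.0 (2800) on the recovered reads and, chosen after seeing the data, leaving out sgPrkci replicate 11 and sgPrkcz replicate 14 together. The tests were checked on simulated data.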

Additional observations from a re-analysis of the deposited data

How the results depend on the processing

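The number of the 9 genes lower in sgPrkci was 4 in every alternative run, and the number higher ran between 2 and 4. The genes called over the whole table numbered 2800 to 4138, and 3089 to 3489 when each library was left out in turn. Calls changed for 2 of the 9 genes. Anxa1 did not pass without the intensity trend (log2 fold change 0.33, adjusted p = 0.166), with DESeq2 (0.45, adjusted p = 0.05), without sgPrkci replicate 11 (0.21) or without sgPrkcz replicate 14 (0.20), nor with both left out (0.08), and the cause was not tested. Spp1 passed with TMM rescaling (0.21) and with edgeR (0.20). F3 kept its call with log2 fold changes of 0.92 to 2.06. No paired analysis was possible because the replicate numbers are not shared between the groups. Depth limits the genes at a few CPM, such as Il1rap, where 1 read was worth up to 0.628 CPM.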
